A study of Mus musculus with 8 samples.

Results

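Expression of 9 listed genes that limit the sensing of self nucleic acids was described in the spleens of Yaa and wild-type male mice. The Yaa mutation is, as background, a duplication of part of the distal X onto the Y chromosome, and the duplicated part includes Tlr7, an endosomal sensor of single-stranded RNA. The members were all probe sets that the platform annotation maps to a single symbol, where that symbol is Trex1, Dnase1l3, Dnase2a, Samhd1, Adar, Rnaseh2a, Rnaseh2b, Rnaseh2c or Pld4. This gave 17 probe sets of 8 genes, out of 18194 genes with such a probe set in all. Trex1, a cytosolic DNA exonuclease, had no probe set of its own symbol alone and was not analysed here. The Yaa group held 4 samples of strain B6.SB-Yaa/J and the wild-type group held 4 of C57Bl/6J, all from males of 8 weeks. Each sample was 1 spleen except Yaa 3, which pooled 2. Red cells were lysed before total RNA was taken and hybridised to 1 Affymetrix array per sample. Other genetic differences between the strains were not analysed here and cannot be told apart from the effect of Yaa.

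These enzymes keep the cell's own DNA and RNA below the level at which innate sensors respond. Dnase1l3 is secreted, largely by macrophages and dendritic cells, and digests chromatin released by dying cells, while Dnase2a works in the lysosome on the DNA of engulfed cells and of nuclei expelled by maturing red cells. RNase H2 cuts RNA out of hybrids with DNA, with Rnaseh2a as its catalytic subunit and Rnaseh2b and Rnaseh2c as its accessory subunits. Pld4 is an endolysosomal exonuclease of single-stranded nucleic acids that restrains Toll-like receptors. Samhd1 and Adar are not nucleases in the narrow sense, since Samhd1 is best known for breaking down deoxynucleotides and Adar edits adenosine to inosine in double-stranded RNA so that it is not read as foreign. In people, inherited loss of several of them causes an interferon-driven or lupus-like disease.

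All levels below are log2 of the quantile-normalised array signal plus 16, and all differences are Yaa minus wild type on that scale, which understates changes of dim probe sets. Levels of different probe sets cannot be set against each other. The labels held in 1 respect that the arrays can show. All 9 tested genes of the copied X segment had higher means in Yaa, with a median difference of 0.78. In 7 of them the groups did not overlap, against 4.10% of all tested probe sets. Even so, limma called 0 of these 9 on the 8 arrays, 6 with array weights and 3 without Yaa 2 and Yaa 3. Over all 22518 tested probe sets these counts were 1, 143 and 103. The arrays Yaa 2 and Yaa 3 stood apart from the rest, at -68.8 and 92.4 on a first principal component that held 56.8% of the variance, with the other 6 between -20.0 and 18.4. Lymphocyte markers of the spleen were low in Yaa 3, while splenic macrophage and erythroid markers were present there, at list means of 9.87 and 12.24. In Yaa 3 the mean of 11 B cell markers stood at 5.64, against 10.23 to 10.94 in the other Yaa samples and 10.24 to 10.63 in wild type, and the mean of 10 T cell markers stood at 5.41, against 8.62 to 9.45 in the other Yaa samples and 8.43 to 8.93 in wild type. Ms4a1, the B cell antigen CD20, was at 4.08 in Yaa 3, near the lowest value of 4 that the added 16 allows. Neutrophil markers also differed between samples, with a list mean of 8.32 to 10.93 in Yaa and 8.02 to 8.81 in wild type. All 11 tested had higher means in Yaa, of which limma called 0 on the 8 arrays and 10 without Yaa 2 and Yaa 3. Monocyte markers had list means of 9.36 to 10.33 in Yaa and 9.05 to 9.17 in wild type. All 11 tested had higher means in Yaa, with a median difference of 0.68 and groups apart in 5, and limma called 0 on the 8 arrays, 4 with array weights and 1 without Yaa 2 and Yaa 3. For the brightest probe set of each member, the difference is therefore also given without Yaa 2 and Yaa 3, and the plot of differences shows it for every tested probe set. In such mixed tissue, fewer cells of a type and less RNA per cell cannot be told apart.

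No member differed between Yaa and wild type by the test used. Of the 17 probe sets 16 were bright enough to be tested. limma called 0 of these 16 at an adjusted p under 0.05, where 0.00444% of all 22518 tested probe sets were called, and listed 0 at an unadjusted p under 0.05, where 4.73% of all were listed. The groups overlapped in all 16, while they were apart in 4.10% of all tested probe sets. The count of calls among the members was also 0 with array weights and without Yaa 2 and Yaa 3. These runs called only 143 and 103 of all 22518 tested probe sets. The mean was higher in Yaa for 5 probe sets and lower for 11, the median difference was -0.09 against -0.01 over all tested probe sets, and single differences ran from -0.57 to 0.20. The 95% confidence intervals together spanned -1.18 to 0.86, and a p that misses the threshold does not show that the levels were equal. In the unscaled deposited signals the median difference was -0.31 for the members and -0.20 for all tested probe sets. After centring each array on its median these were -0.22 and -0.11.

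**Figure D1:**
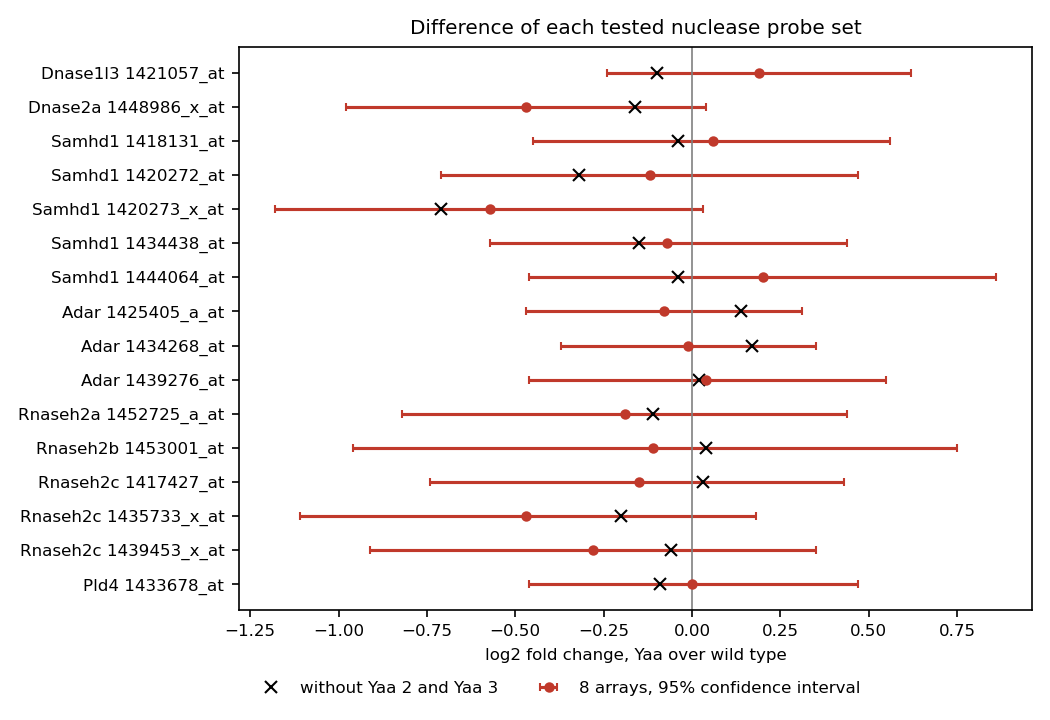
Difference of each tested probe set on the log2 scale, Yaa over wild type, with its 95% confidence interval from limma on 8 arrays (circles) and the difference without Yaa 2 and Yaa 3 (crosses). Every interval holds 0, and the intervals of the Samhd1 probe set 1420273_x_at (-1.18 to 0.03) and of Dnase2a (-0.98 to 0.04) reach it most narrowly.

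Among the DNases, both Dnase1l3 probe sets had higher means and the Dnase2a probe set a lower mean in Yaa, with overlapping groups in each. The brighter Dnase1l3 probe set, 1421057_at, had levels of 6.34, 7.13, 6.84 and 6.48 in Yaa 1 to 4, against 6.65, 6.56, 6.36 and 6.44 in wild type 1 to 4. Yaa 2 and Yaa 3 were the highest of the 8 samples, while Yaa 1 was the lowest, so the groups overlapped. The difference was 0.19 ± 0.19 (SE; 95% confidence interval -0.24 to 0.62; limma adjusted p = 1), and without Yaa 2 and Yaa 3 it was -0.10 ± 0.16 (SE). Without Yaa 2 alone it was 0.05 and without Yaa 1 alone 0.31.

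The other Dnase1l3 probe set, 1421056_at, lay below the limit for testing, at 5.49, 6.26, 5.69 and 4.45 in Yaa, against 4.22, 5.52, 4.09 and 4.17 in wild type. In 3 of the 4 wild-type samples the normalised signal was 1.07 to 2.6 units, close to 0, and wild type 2 stood at 29.9 units, beside 5.85 to 60.5 units in Yaa. Wild type 2 thus lay among the Yaa samples and Yaa 4 near the wild-type ones. The difference of 0.97 had a two-sided exact permutation p of 0.0857 (n = 4 each), and with dim probe sets included limma gave an unadjusted p of 0.0454 and an adjusted p of 0.989. Both Dnase1l3 probe sets were highest in Yaa 2. Markers of splenic macrophages, a known source of this enzyme, had mean levels of 8.44 to 9.87 in Yaa and 8.52 to 8.62 in wild type. Yaa 3 was highest and Yaa 2 lowest. Conventional dendritic cell markers had mean levels of 7.05 to 7.82 in Yaa and 7.31 to 7.74 in wild type. There Yaa 2 was highest and Yaa 3 lowest, but single genes of that list differed, with Flt3 highest in Yaa 2 and Itgax in Yaa 3. The part of either cell type in the Dnase1l3 values was not tested.

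Dnase2a was measured by 1 probe set, 1448986_x_at, at 6.22, 5.60, 5.36 and 5.97 in Yaa, against 6.25, 6.16, 5.97 and 6.63 in wild type. Yaa 2 and Yaa 3 were the lowest of the 8, Yaa 4 was level with wild type 3, and Yaa 1 was higher than 2 of the 4 wild-type samples. The mean was 5.79 ± 0.38 (SD, n = 4) in Yaa and 6.25 ± 0.28 (SD, n = 4) in wild type, a difference of -0.47 ± 0.23 (SE; 95% confidence interval -0.98 to 0.04; limma unadjusted p = 0.0683, adjusted p = 0.997). It shrank to -0.16 ± 0.21 (SE) without Yaa 2 and Yaa 3. Without Yaa 1 it grew to -0.61 ± 0.22 (SE; limma unadjusted p = 0.0258, adjusted p = 0.988). These levels are low, near the testing limit of 5.38, and a further probe set that the annotation gives to Dnase2a together with another gene was not used.

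**Figure D2:**
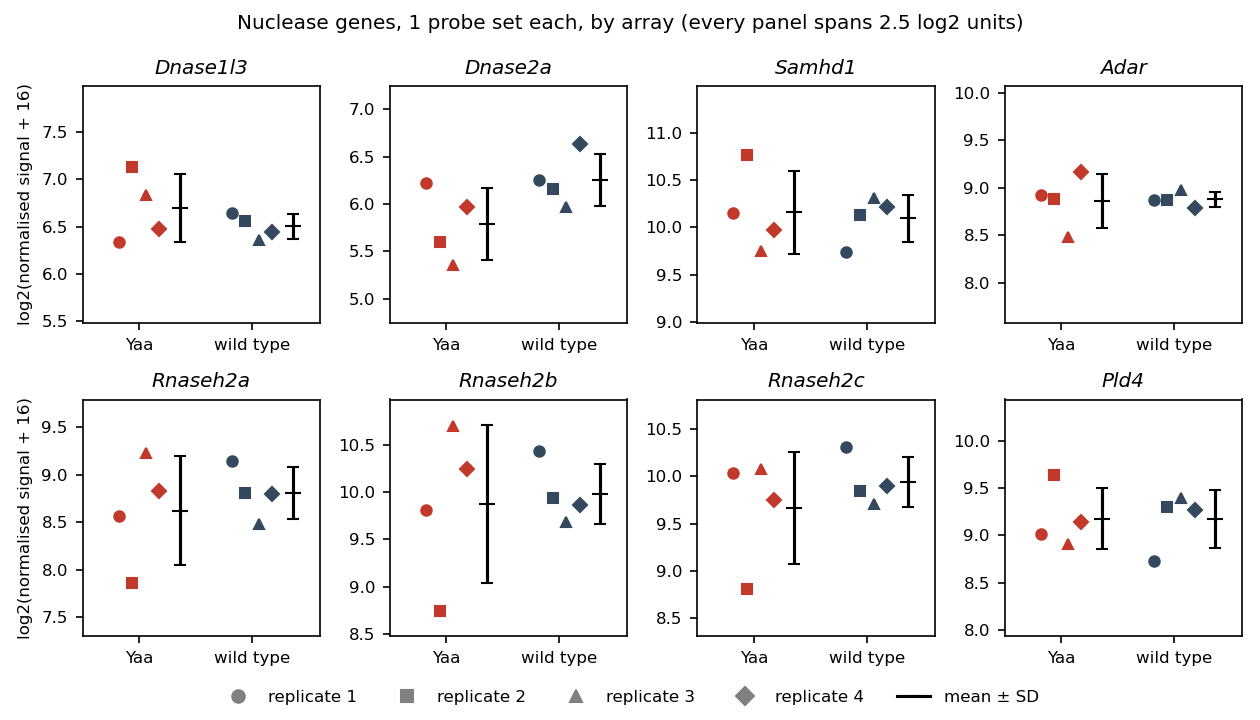
Level of each gene in every array, 1 probe set per gene, as log2 of normalised signal plus 16. Symbols give the replicate number in Yaa (red, left) and wild type (dark, right), and bars the mean ± SD of 4 samples, with the same span in every panel. The groups overlap in all 8 panels, and the squares of Yaa 2 lie lowest in the 3 RNase H2 panels and highest in those of Samhd1, Pld4 and Dnase1l3.

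The RNase H2 subunits varied together from sample to sample, and more within Yaa than between the groups. Rnaseh2a, the catalytic subunit, stood at 8.57, 7.86, 9.23 and 8.83 in Yaa 1 to 4, against 9.15, 8.81, 8.48 and 8.80 in wild type 1 to 4. Rnaseh2b stood at 9.81, 8.74, 10.70 and 10.24 in Yaa, against 10.43, 9.94, 9.68 and 9.86 in wild type. Rnaseh2c, by its brightest probe set 1439453_x_at, stood at 10.03, 8.81, 10.08 and 9.75 in Yaa, against 10.31, 9.84, 9.71 and 9.90 in wild type. Yaa 2 was the lowest of the 8 samples for all 3 subunits, Yaa 3 was the highest for Rnaseh2a and Rnaseh2b, and wild type 1 was the highest of its group for all 3.

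The differences were -0.19 ± 0.28 for Rnaseh2a, -0.11 ± 0.38 for Rnaseh2b and -0.28 ± 0.28 for Rnaseh2c (SE; limma adjusted p = 1 for each). Without Yaa 2 alone they turned to 0.06, 0.27 and 0.0088. Rnaseh2b also turned without wild type 1, to 0.04. Leaving out both Yaa 2 and Yaa 3 gave -0.11, 0.04 and -0.06, so Rnaseh2a and Rnaseh2c were below 0 in that run. The signs thus depended on which of these samples were kept. The interval of Rnaseh2b, -0.96 to 0.75, was the widest among the brightest probe sets of the genes, and its levels ranged over 1.96 log2 units within Yaa, against 0.75 within wild type. The other Rnaseh2c probe sets differed by -0.15 ± 0.26 (1417427_at) and -0.47 ± 0.28 (1435733_x_at; SE), both lowest in Yaa 2, at 8.45 and 8.21. Without Yaa 2 the first turned to 0.09 ± 0.17 and the second stayed below 0, at -0.19 ± 0.18 (SE).

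The same samples were low and high for cell cycle genes. The mean of 19 of them, relative to its own average over the 8 arrays, was 0.01, -1.18, 0.54 and 0.15 in Yaa 1 to 4, against 0.39, 0.12, -0.03 and 0.01 in wild type. On that footing Rnaseh2b was at -0.12, -1.18, 0.77 and 0.31 in Yaa, against 0.51, 0.01, -0.25 and -0.06 in wild type. Erythroid markers were also lowest in Yaa 2, at -1.51, and highest in Yaa 3, at 0.40, with wild type between 0.10 and 0.35. limma called 0 of the 19 cell cycle genes and 0 of the 8 erythroid markers, and the part of either cell population in the RNase H2 values was not tested.

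**Figure D3:**
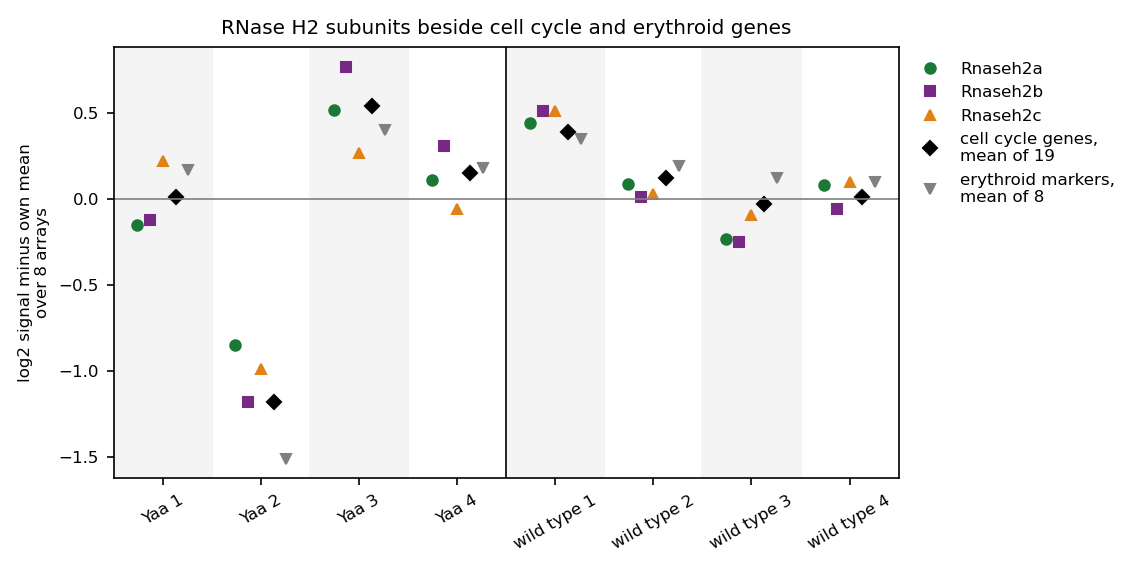
RNase H2 subunits, the mean of 19 cell cycle genes and the mean of 8 erythroid markers in each array, as log2 signal minus the average of the same quantity over the 8 arrays. In Yaa 2 all 5 quantities lie between -1.51 and -0.85, and in the other 7 arrays between -0.25 and 0.77.

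By the brightest probe set of each gene, Rnaseh2b, Rnaseh2c and Rnaseh2a had the largest ranges over the arrays, and the genes whose profiles lay closest to theirs were looked up over 10340 genes. Closeness was the root mean square difference between profiles, each centred on its own mean over the 8 arrays, and is given as a description. Closest to Rnaseh2a were Tonsl, a factor of replication fork repair, at 0.04 log2 units, then Zdhhc6 at 0.05 and Ssna1 at 0.06. Closest to Rnaseh2b were Mtfr2 at 0.05, the splicing regulator Hnrnpll at 0.07 and Enpp3 at 0.07. Closest to Rnaseh2c were Mpp1, a membrane protein of red cells, at 0.08, the deubiquitinase Usp32 at 0.09 and Tab3, an adaptor of the kinase TAK1, at 0.09. All of these were lowest in Yaa 2, with Tonsl at 6.70 there, against 7.46 to 7.99 in the other Yaa samples and 7.28 to 7.95 in wild type.

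Because Rnaseh2a was low and high in the same samples as cell cycle genes, its promoter is shown, taken from RefSeq on GRCm38.p6 at chr8:84966027-84966326, minus strand, from 250 bases before to 50 after the start site. Capitals mark TTTCGCG, letters of the E2F type that is common before genes of DNA replication, which begin 16 bases into the transcript.
Rnaseh2a: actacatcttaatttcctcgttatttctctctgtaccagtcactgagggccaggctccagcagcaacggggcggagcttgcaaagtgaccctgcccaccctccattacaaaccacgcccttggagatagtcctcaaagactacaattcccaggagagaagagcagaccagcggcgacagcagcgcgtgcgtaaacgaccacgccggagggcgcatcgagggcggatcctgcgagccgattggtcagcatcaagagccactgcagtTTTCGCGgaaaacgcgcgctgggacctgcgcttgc
Searched on both strands, TTTCGCG was in 0.849% of the 32851 promoter windows of the same length. Among the 10 windows of listed genes it was in that of Rnaseh2a alone. Rnaseh2b had no window to search, and the window of Rnaseh2c was without these letters. The match is a description of these letters and not a shown binding site, and no statement on a factor follows for windows without it.

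Samhd1 was measured by 5 tested probe sets that did not behave alike. The brightest, 1418131_at, stood at 10.15, 10.76, 9.75 and 9.97 in Yaa, against 9.74, 10.13, 10.31 and 10.21 in wild type, with Yaa 2 highest and wild type 1 and Yaa 3 lowest. Its difference was 0.06 ± 0.22 (SE; 95% confidence interval -0.45 to 0.56; limma adjusted p = 1), and it was -0.14 without Yaa 2, -0.06 without wild type 1 and -0.04 without Yaa 2 and Yaa 3. It was likewise below 0 in the unscaled signals, at -0.15. A further probe set, 1434438_at, was also highest in Yaa 2, at 9.41, and differed by -0.07 ± 0.22 (SE).

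The probe set 1420273_x_at had the most negative difference of all members. It stood at 7.33, 7.21, 8.35 and 7.68 in Yaa, against 8.16, 8.20, 7.87 and 8.65 in wild type, so that Yaa 1, Yaa 2 and Yaa 4 were below every wild-type sample and Yaa 3 was above 3 of the 4. The difference was -0.57 ± 0.27 (SE; limma unadjusted p = 0.061, adjusted p = 0.997), and without Yaa 2 and Yaa 3 it was -0.71 ± 0.20 (SE; limma unadjusted p = 0.00511, adjusted p = 0.258). In the fit with array weights (0.218 for Yaa 2 and 0.223 for Yaa 3) it was -0.78 ± 0.20 (SE; limma adjusted p = 0.157). The remaining Samhd1 probe sets differed by -0.12 ± 0.26 (1420272_at) and 0.20 ± 0.29 (1444064_at; SE), and 1420272_at was highest in Yaa 3, at 8.43, where 1418131_at was low. The gene therefore had no single direction on the 8 arrays, and the positive signs depended on Yaa 2. Every tested Samhd1 probe set was below 0 without Yaa 2, from -0.43 to -0.02. The same held without Yaa 2 and Yaa 3, from -0.71 to -0.04. With array weights 1444064_at stayed above 0, at 0.12. limma called none of these differences, and which transcripts each probe set reads was not analysed here.

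Pld4 had the same mean in both groups. Its probe set 1433678_at stood at 9.02, 9.64, 8.91 and 9.14 in Yaa, against 8.73, 9.30, 9.40 and 9.27 in wild type, giving 9.18 ± 0.32 (SD, n = 4) in Yaa and 9.18 ± 0.30 (SD, n = 4) in wild type. Yaa 2 was the highest and wild type 1 the lowest. The difference was 0.00 ± 0.21 (SE; 95% confidence interval -0.46 to 0.47; limma adjusted p = 1). As a fold the interval ran from 0.72 to 1.38. The difference was -0.09 without Yaa 2 and Yaa 3, -0.15 without Yaa 2 or without wild type 1, -0.23 in the unscaled signals and -0.14 after median centring. Pld4 is known from plasmacytoid dendritic cells, B cells and macrophages. In Yaa 3 Pld4 was at -0.27 relative to its own average over the arrays. In that array the B cell marker mean was at -4.23 relative to its average. The mean of 11 plasmacytoid dendritic cell markers was at -0.75, that of 14 splenic macrophage markers at 1.16 and that of 11 monocyte markers at 0.85. The plasmacytoid dendritic cell list was split in Yaa 3. Ly6d, Spib, Tcf4, Pacsin1 and Irf8 were below every wild-type sample, with Ly6d at 6.69 against 11.04 to 11.49. Pltp, Cox6a2 and Klk1 were the highest of all samples, and Siglech, at 6.73, lay within the wild-type range of 6.37 to 6.79. The part of any of these cells in the Pld4 signal was not tested.

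Pld4 and Samhd1 had the closest profiles of any pair of members, with a root mean square difference of 0.12 log2 units between the profiles of their brightest probe sets. Next came Rnaseh2a with Rnaseh2b and with Rnaseh2c, at 0.18 each. Samhd1 and Rnaseh2b were farthest apart, at 0.86, with Samhd1 highest by 1418131_at and Rnaseh2b lowest in Yaa 2. The Samhd1 probe set 1420273_x_at was instead lowest in Yaa 2, at 7.21. The Pld4 promoter is shown because the gene is one of cells that depend on the transcription factor PU.1, with capitals marking letters of the PU.1 type, GAGGAAGT, which begin 10 bases into the transcript. It was taken from RefSeq on GRCm38.p6 at chr12:112760405-112760704, plus strand, over the same span around the start site.
Pld4: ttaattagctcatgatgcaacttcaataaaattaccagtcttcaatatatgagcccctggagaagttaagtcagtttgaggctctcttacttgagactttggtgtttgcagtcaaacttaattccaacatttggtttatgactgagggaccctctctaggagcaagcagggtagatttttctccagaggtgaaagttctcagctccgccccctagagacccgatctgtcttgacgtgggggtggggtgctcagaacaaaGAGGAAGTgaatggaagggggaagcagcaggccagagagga
GAGGAAGT was in 3.20% of all promoter windows on either strand, and in 3 of the 10 windows of listed genes, those of Pld4, Adar and Trex1. Samhd1, whose profile lay closest, had no such letters in its window.

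**Figure D4:**
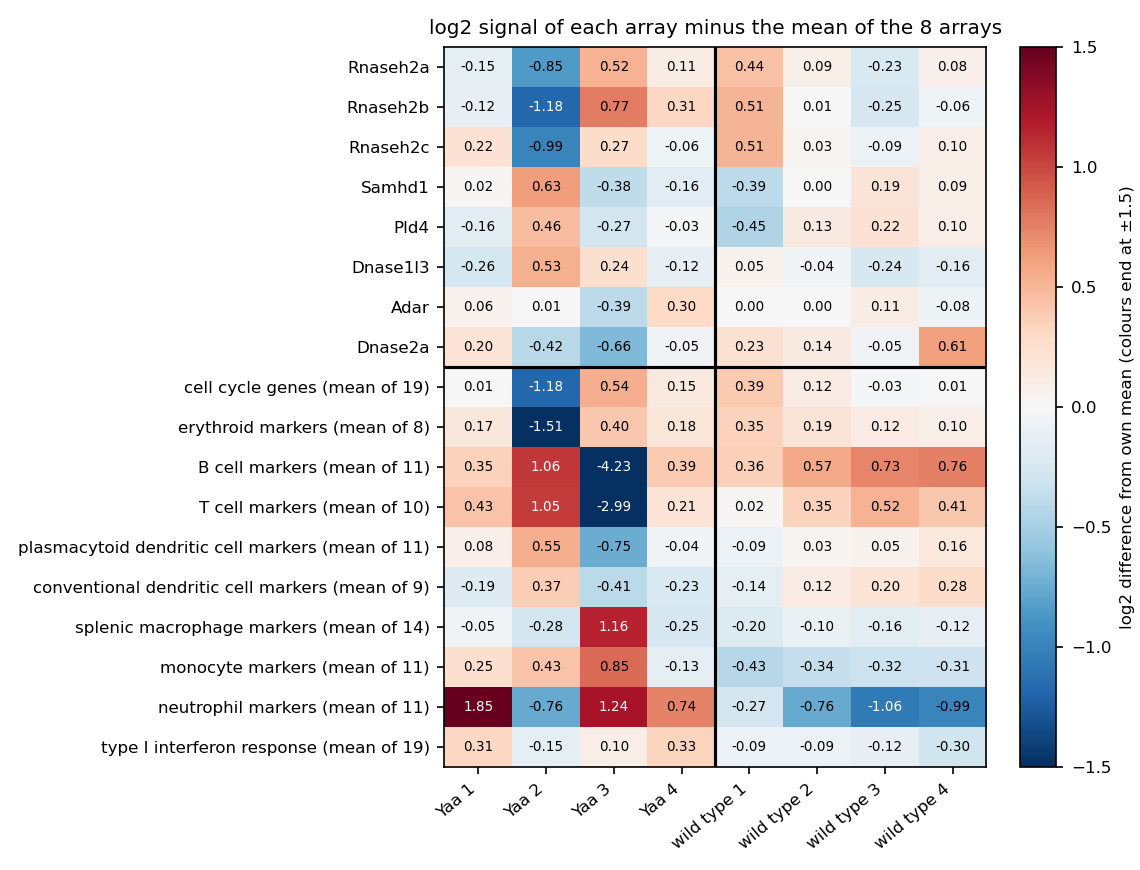
Level of each gene by its brightest probe set (8 upper rows) and mean level of each marker list (lower rows) in every array. Values are log2 signal minus the average of that row over the 8 arrays, with Yaa left of wild type. RNase H2 subunits are lowest in Yaa 2 with cell cycle genes (-1.18) and erythroid markers (-1.51), Samhd1, Pld4 and Dnase1l3 are highest in that array (0.63, 0.46 and 0.53), and the B and T cell lists are at -4.23 and -2.99 in Yaa 3.

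Adar, itself known as a target of interferon, differed little between the groups by any of its 3 probe sets. The brightest, 1434268_at, stood at 8.93, 8.88, 8.48 and 9.17 in Yaa, against 8.87, 8.87, 8.98 and 8.79 in wild type. Yaa 4 was the highest and Yaa 3 the lowest, so the Yaa samples enclosed all wild-type ones. The difference was -0.01 ± 0.16 (SE; 95% confidence interval -0.37 to 0.35; limma adjusted p = 1), as a fold 0.99 with an interval of 0.78 to 1.27, which was the narrowest of the members. Without Yaa 3 it was 0.12, without wild type 3 it was 0.02, and without Yaa 2 and Yaa 3 it was 0.17 ± 0.12 (SE). The other probe sets differed by -0.08 ± 0.17 (1425405_a_at) and 0.04 ± 0.22 (1439276_at; SE).

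The RefSeq table holds 3 Adar start sites, and 1 of them carries letters of the type bound by interferon regulatory factors, GAAANNGAA. It is shown because the other interferon response genes are set beside Adar next. The window lies on GRCm38.p6 at chr3:89730468-89730767, plus strand, and capitals mark GAAANNGAA at its upstream end, where it overlaps the reverse complement of GAGGAAGT, and again 34 bases into the transcript.
Adar: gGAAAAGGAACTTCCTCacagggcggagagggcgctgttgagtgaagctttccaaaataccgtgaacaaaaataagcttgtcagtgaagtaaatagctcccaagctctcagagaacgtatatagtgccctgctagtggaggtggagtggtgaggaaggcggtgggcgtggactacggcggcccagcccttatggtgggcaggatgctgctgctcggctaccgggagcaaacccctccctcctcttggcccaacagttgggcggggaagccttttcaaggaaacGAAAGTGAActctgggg
GAAANNGAA on either strand was in 8.56% of all promoter windows, and in no other of the 10 windows of listed genes, which cover all listed genes but Dnase1l3 and Rnaseh2b.

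Type I interferon response genes had mostly higher means in Yaa, but none was called on the 8 arrays. Of 22 listed, 19 were tested, 16 with higher and 3 with lower means, and the median difference was 0.30. With adjustment over all tested probe sets limma called 0 of the 19. It listed 4 at an unadjusted p under 0.05, all higher, against 4.73% of all tested probe sets. It called 2, Oas1a and Rtp4, with array weights and also without Yaa 2 and Yaa 3. Of all 22518 tested probe sets those runs called 143 and 103. Rtp4, a chaperone of receptors, was at 8.43 to 8.99 in Yaa, against 7.27 to 8.03 in wild type, a difference of 0.99 ± 0.19 (SE; limma adjusted p = 0.41). Oas1a, a synthetase that senses double-stranded RNA, differed by 0.58 ± 0.15, Oasl2 by 0.56 ± 0.23 and Bst2, which tethers virions, by 0.55 ± 0.22 (SE; limma adjusted p = 0.66, 1 and 1). The groups were apart in Rtp4, Oas1a and Oasl2 and in no other of the 19, against 4.10% of all tested probe sets. They overlapped in Bst2. The list mean was 8.45, 7.99, 8.24 and 8.47 in Yaa, against 8.05, 8.05, 8.02 and 7.84 in wild type, while Adar was lowest in Yaa 3. The difference between Adar and this list was not tested.

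Sensors and adaptors of nucleic acids, the proteins whose ligands these enzymes remove, gave a median difference of 0.10 over 17 tested genes of 18, with 10 higher and 7 lower, and limma called 0. Tlr7, which lies on the copied segment, had 8.02, 8.51, 7.62 and 7.86 in Yaa, against 7.31, 6.96, 7.24 and 6.85 in wild type, and every Yaa sample was above every wild-type sample. Its difference was 0.91 ± 0.21 (SE; limma unadjusted p = 0.00163, adjusted p = 0.55), the 1 sensor at an unadjusted p under 0.05, and limma called it with array weights but not without Yaa 2 and Yaa 3. Dhx58, a regulator of cytosolic RNA sensing, differed by 0.37 ± 0.17, the adaptor Myd88 by 0.22 ± 0.15 and the transcription factor Irf3 by -0.18 ± 0.11 (SE; limma adjusted p = 1 for each).

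Other nucleases did not pass the test either. Of 26 listed, 24 had a probe set and 19 were tested, 6 with higher and 13 with lower means in Yaa, with a median difference of -0.09. limma called 0 and listed 0 at an unadjusted p under 0.05. The secreted ribonuclease Rnase4 differed by 0.51 ± 0.26, with Yaa 3 highest at 6.88, and the lysosomal ribonuclease Rnaset2a by -0.57 ± 0.36, with Yaa 3 lowest at 4.24, against 5.84 to 6.14 in wild type (SE). Rnase6 differed by -0.40 ± 0.21 and Rad50, of the complex that processes broken DNA ends, by -0.29 ± 0.20 (SE; limma adjusted p = 1 for these 4 genes).

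The spread of the members was larger in Yaa than in wild type. The SD over 4 samples was larger in Yaa for 16 of the 16 tested probe sets, with a median of 0.48 in Yaa and 0.27 in wild type. Over all tested probe sets it was larger in Yaa for 82.8%, with medians of 0.34 in Yaa and 0.18 in wild type, so the members shared a feature of the arrays at large. Among the 8 genes, Yaa 2 held the highest or lowest of the 8 values for 6, and Yaa 3 for 4. Whether the member spread differs from that of other probe sets was not tested.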

How the data were processed

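Total RNA of spleen cells was measured on 8 Affymetrix mouse arrays, 4 per group by the strain label. The deposited intensity values are linear MAS5 signals per probe set, per the submitters' processing notes, with no version or scaling target given. Of 45101 probe sets, 64 were controls. Array levels were unequal (trimmed mean signal 106.2 to 192.1, without 2% at each end), so arrays were quantile normalised and log2(signal + 16) was taken. Leaving out controls and probe sets at or below the median level of 5.38 kept 22518 for testing. Differences between Yaa and wild type were tested by limma 3.58.1 in R 4.3.3 (lmFit, eBayes with a trend), with Benjamini-Hochberg adjustment over all tested probe sets and a threshold of 0.05, after a test on simulated data. The two-sided exact permutation test over 70 arrangements cannot go below p = 0.0286. The number of arrays limits the precision.

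Symbols came from the platform annotation, updated by Entrez ID to GRCm38.p6 (34754 of 34945 probe sets with 1 symbol; 932 had several and 9160 none). A gene's brightest tested probe set stood for it. Named were all member probe sets, the 4 smallest p of each of 3 related lists, and the 3 closest profiles of the 3 members of largest range. Members and lists were chosen with earlier results of these data known. Ms4a1 and the motifs were chosen after the values and sequences were seen. Alternatives were other pseudocounts, filters, scalings and variance models, array weights, a replicate block and samples left out with the same probe sets tested.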

Additional observations from a re-analysis of the deposited data

Results flagged for a closer look

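In 34 groups of 4 samples, 2 values lay far from the other 3 of their group, by a gap of over 0.829 of the range of the group, where chance flags about 1 in 20 groups. The dim Dnase1l3 probe set 1421056_at stood at 5.52 in wild type 2, against 4.09, 4.17 and 4.22 in the other wild-type samples. The Adar probe set 1425405_a_at stood at 8.42 in wild type 4, against 8.66, 8.71 and 8.71 in the others.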

How the results depend on the processing

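In every alternative run limma called 0 of the 16 tested member probe sets, while the count over all probe sets moved. It was 1 as reported, 143 with array weights, 103 without Yaa 2 and Yaa 3, 1 to 31 with single samples left out (2, 31 and 11 without Yaa 1, Yaa 2 and Yaa 4), and 0 with the replicate block, where 731 had an unadjusted p under 0.05. The replicate numbers did not pair the samples: same-numbered samples deviated from their group means with correlations of -0.37 to 0.02, and 0 of 8 samples was closest to its own number. The block left every member uncalled. At an unadjusted p under 0.05 limma listed at most 2 of the 16 in any run, while it listed 664 to 2549 of all probe sets. Dnase2a was listed with the block and without Yaa 1, and Rnaseh2c 1435733_x_at with the values as deposited. Samhd1 1420273_x_at was listed with the values as deposited, median-centred arrays and array weights. It was also listed without Yaa 3, without wild type 3, and without Yaa 2 and Yaa 3. The median member difference of -0.09 was -0.31 with the values as deposited, -0.22 with median-centred arrays, and -0.17 to -0.04 with single samples left out. Signs that turned were all of uncalled differences, and the cause was not tested. With array weights Dnase1l3 was -0.04, Samhd1 -0.04, Adar 0.11, Rnaseh2b 0.01 and Pld4 -0.16. Without Yaa 2 and Yaa 3 Dnase1l3 was -0.10, Samhd1 -0.04, Adar 0.17, Rnaseh2b 0.04 and Pld4 -0.09. With the values as deposited Samhd1 was -0.15 and Pld4 -0.23, and with median-centred arrays -0.06 and -0.14. With single samples left out Dnase1l3 ran from 0.05 to 0.31, Samhd1 from -0.14 to 0.19, Adar from -0.11 to 0.12, Rnaseh2a from -0.39 to 0.06, Rnaseh2b from -0.38 to 0.27, Rnaseh2c from -0.41 to 0.0088 and Pld4 from -0.15 to 0.09. Dnase2a kept its negative sign in all alternatives run, from -0.61 to -0.33 with single samples left out.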
